A study of Mus musculus with 4 samples.

Results

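The genes described here are 38 genes of sterol and fatty acid synthesis in mouse B-lymphoma cells, taken by name from a table of RNA sequencing counts of 16591 genes. They comprise 18 enzymes of sterol synthesis, 12 genes of fatty acid synthesis, elongation and desaturation, and 8 genes of sterol sensing and transport. All but Me1, whose level was therefore not analysed here, had a row in the table, and all 37 passed the filter on low counts. Me1 was part of the promoter search only. The libraries came from a JQ1-resistant Eμ-Myc line (JQ1R, 2 libraries) and a JQ1-sensitive Eμ-Myc line (JQ1S, 2 libraries), both of C57BL/6 origin. Eμ-Myc cells carry a Myc transgene driven by the enhancer of the immunoglobulin heavy chain, which is active in B-lineage cells, and JQ1 is a small molecule that displaces BET bromodomain proteins from acetylated histones. Both lines were early-passage cells in high-glucose medium with fetal calf serum, and the labels name no drug in the culture before RNA was taken. Each state is represented by a single line, so effects of resistance and unrelated features of that line cannot be told apart.

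Sterol regulatory element-binding proteins (SREBPs) are membrane-bound transcription factors of the endoplasmic reticulum. When cell sterol is low, the escort protein SCAP carries them to the Golgi, where proteases release the active factor, and when sterol is high, INSIG proteins hold SCAP back. SREBP-2, from Srebf2, is best known for driving cholesterol synthesis, and SREBP-1, from Srebf1, for driving fatty acid synthesis, with overlap between them. Dividing lymphocytes draw on both pathways to build membranes.

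Total counts were 10928239 and 11809635 in the JQ1R libraries and 13048103 and 10346007 in the JQ1S libraries. Mitochondrial genes took 4.87% and 4.71% of counts in the JQ1R libraries and 5.04% and 5.16% in the JQ1S libraries. Levels are given in CPM, counts per 1000000 after TMM scaling of the library sizes, and errors are SDs over 2 libraries. Of 10 B-cell markers 9 were at 102 CPM (Pax5) or more in every library, and Vpreb1 was below 1 CPM. Of the 9 tested, 4 had an unadjusted p below 0.05 in edgeR, beside 2013 of all 11945 tested genes. Cd22 was called higher (172 and 168 CPM in JQ1R, 137 and 144 CPM in JQ1S, edgeR). Summed B-cell marker levels were 3935 and 3814 CPM in JQ1R and 3580 and 3671 CPM in JQ1S. Their part in the differences of the lipid genes was not tested. Summed levels of the T-cell, myeloid, erythroid, stromal, and adipocyte and liver markers were each at most 3.11 CPM in the JQ1R libraries and 4.24 CPM in the JQ1S libraries, and none of the 5 stromal markers had a row in the table, whose rows all hold at least 4 counts over the libraries. The labels do not say whether the 2 libraries of a line came from separate cultures, so p-values measure the spread between these libraries, which may be technical. In bulk RNA, fewer cells of a type and less RNA per cell cannot be told apart.

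A set of sterol synthesis genes rose modestly in JQ1R relative to JQ1S cells, and the fatty acid genes that changed went in both directions. Of 18 sterol synthesis enzymes 6 rose and 0 fell at an adjusted p below 0.05 (edgeR quasi-likelihood test, Benjamini-Hochberg adjustment over 11945 genes). This count was 0 in DESeq2, 1 without JQ1R replicate 1 and 0 without JQ1R replicate 2. Of 11 fatty acid genes 1 rose, the desaturase gene Scd2, and 1 fell, the carboxylase gene Acaca. Of the 8 sensing and transport genes 3 rose. Together 11 of the 37 genes were called, against 3.73% of all tested genes in either direction, 2.2% higher and 1.52% lower, and 3.6% of the 5754 genes whose mean log2 CPM was 5 or more. The median log2 change was 0.25 for the sterol synthesis genes, 0.12 for the sensing and transport genes and 0.07 for the fatty acid genes, or 0.11 without Acaca, beside 0.00 for all tested genes (0.003). Positive log2 changes were found in 17 of the 18 sterol synthesis genes and in 7 of the 11 fatty acid genes, beside 6082 of all 11945 tested genes. Dhcr7 is counted among the 17 at a change of 0.001 that turned negative under DESeq2 size factors. The sterol median exceeded the fatty acid median by 0.17, a difference that was described and not tested.

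**Figure D1:**
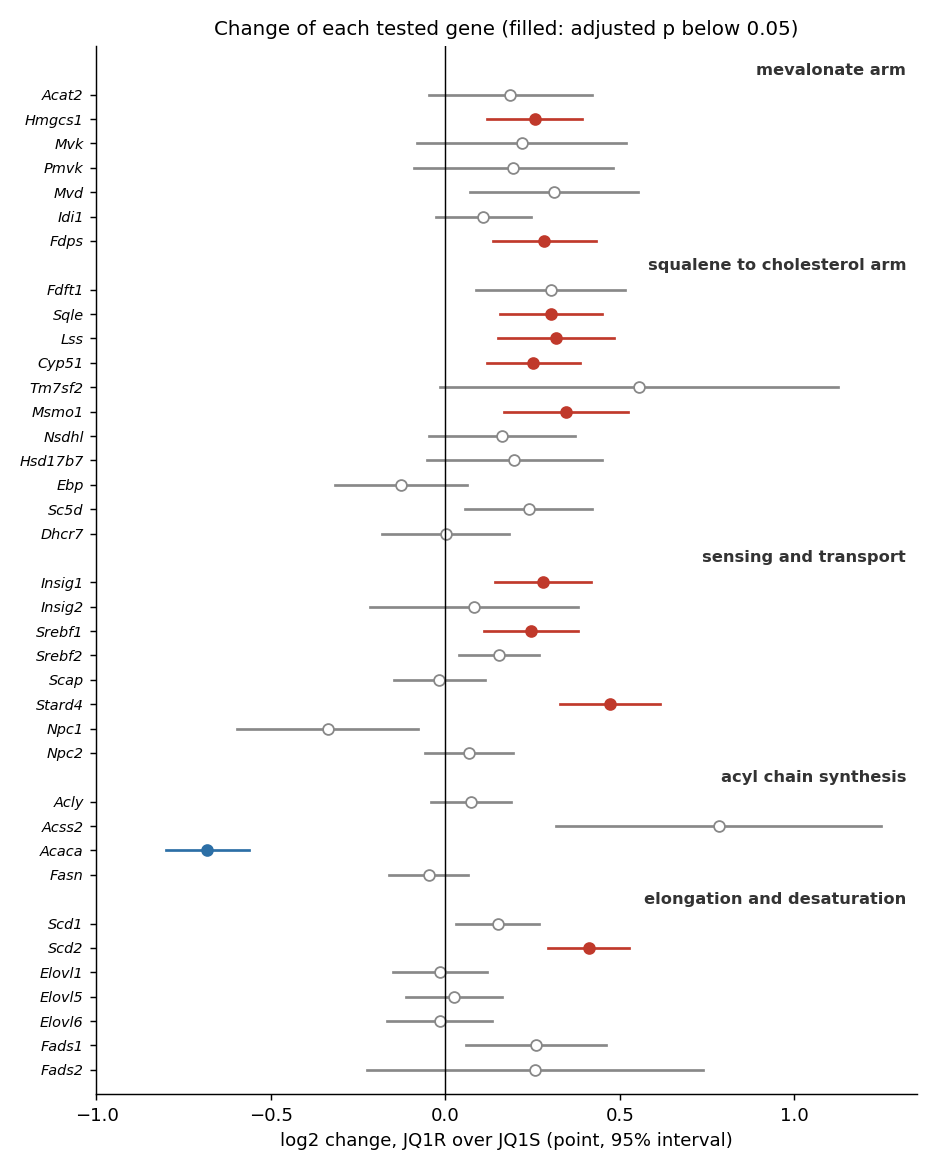
Log2 change of each of the 37 tested genes, JQ1R over JQ1S, on the horizontal axis, with its 95% interval, grouped by pathway position; filled points passed an adjusted p below 0.05 in edgeR, red for higher and blue for lower. The sterol synthesis points lie mostly between 0.1 and 0.35, and Acaca stands alone at -0.68.

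The first arm of the pathway turns acetyl-CoA into farnesyl diphosphate through mevalonate. Hmgcs1 encodes the synthase that makes HMG-CoA, and it stood at 160 and 161 CPM in the JQ1R libraries and at 142 and 127 CPM in the JQ1S libraries. Both JQ1R libraries lay above both JQ1S libraries, and the log2 change was 0.26 ± 0.06 (SE), a rise of 19.4% (adjusted p = 0.037, edgeR). A gene on the other strand overlaps 12.1% of its exonic bases. Fdps encodes farnesyl diphosphate synthase, at the end of this arm. It rose to 85.9 and 81.2 CPM in JQ1R, against 71.1 and 66.0 CPM in JQ1S, with a log2 change of 0.28 ± 0.07 (adjusted p = 0.0324, edgeR). The groups did not overlap here either, but 91.4% of the longest Fdps transcript matched another annotated gene at 95% identity or more, so its counts depend on how such reads were assigned, and 26.7% of its exonic bases overlap a gene on the same strand.

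The 5 other genes of this arm did not pass the test, and all had positive log2 changes, between 0.11 and 0.31. They are Acat2, an acetyl-CoA acetyltransferase, the mevalonate and phosphomevalonate kinases Mvk and Pmvk, the decarboxylase Mvd and the isomerase Idi1. Mvd had the largest change of these (0.31 ± 0.11, adjusted p = 0.16, edgeR), at 19.9 and 18.9 CPM in JQ1R and 14.6 and 16.7 CPM in JQ1S. Idi1, the most abundant gene of the arm both in CPM and in CPM per kilobase of exon, averaged 215 ± 1.61 CPM in JQ1R and 199 ± 18.2 CPM in JQ1S cells (log2 change 0.11, 95% interval -0.03 to 0.25). The overlap of the lines in this arm was limited to Acat2, at 38.7 and 42.8 CPM in JQ1R and at 40.6 and 30.5 CPM in JQ1S. Of all tested genes 47.3% did not overlap between the lines. Part of the Acat2 transcript (65.6%) matches Acat3 or another gene, so its counts are uncertain too.

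The second arm joins farnesyl units into squalene, closes the ring and trims lanosterol to cholesterol. Of its 11 genes 4 rose: Sqle, Lss, Cyp51 and Msmo1. Sqle, the squalene epoxidase and a rate-limiting step, stood at 146 and 146 CPM in JQ1R and at 126 and 110 CPM in JQ1S, a log2 change of 0.30 ± 0.07 (adjusted p = 0.0191, edgeR). Lss, the cyclase that makes lanosterol, stood at 49.8 and 48.7 CPM in JQ1R and at 40.9 and 37.9 CPM in JQ1S (0.32 ± 0.08, adjusted p = 0.0335, edgeR). In both genes the JQ1R libraries were nearly equal and the JQ1S libraries were lower and further apart.

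Cyp51 encodes the demethylase that first acts on lanosterol. It rose to 134 and 142 CPM in JQ1R, against 119 and 112 CPM in JQ1S, with a log2 change of 0.25 ± 0.06 (adjusted p = 0.036, edgeR). Msmo1, which encodes the methylsterol oxidase of the following steps, had the largest called rise of the sterol enzymes, at 57.5 and 63.6 CPM in JQ1R and 50.7 and 44.2 CPM in JQ1S (0.35 ± 0.08, 27.1% higher, adjusted p = 0.0279, edgeR). The groups did not overlap for either gene, and the gap between the nearest JQ1R and JQ1S libraries was wider than the gap within JQ1R for Cyp51 and about the size of it for Msmo1.

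The other 7 genes of this arm did not pass. Fdft1, which encodes squalene synthase, was at 37.3 and 40.1 CPM in JQ1R and at 34.6 and 27.7 CPM in JQ1S (0.30 ± 0.10, adjusted p = 0.125, edgeR). Of its transcript 54.7% matches other genes, 33.75% the processed pseudogene Gm6781 and 20.9% Ctsb on the opposite strand. Sc5d, the sterol desaturase, had a log2 change of 0.24 and did not overlap between lines, at 37.4 and 34.9 CPM in JQ1R and 30.5 and 30.8 CPM in JQ1S. Among the late steps, Dhcr7, which reduces the last ring double bond to be removed in one branch, averaged 37.8 ± 2.80 CPM in JQ1R and 37.7 ± 1.63 CPM in JQ1S (95% interval of the log2 change -0.18 to 0.18). Ebp, the sterol isomerase a few steps earlier, averaged 28.6 ± 1.26 CPM in JQ1R and 31.2 ± 0.63 CPM in JQ1S, a negative log2 change (-0.13, adjusted p = 0.51, edgeR). Nsdhl (0.16), Hsd17b7 (0.20) and the scarcely expressed reductase Tm7sf2 (0.55, at 3.20 and 4.97 CPM in JQ1R and 2.31 and 3.40 CPM in JQ1S) made up the rest.

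**Figure D2:**
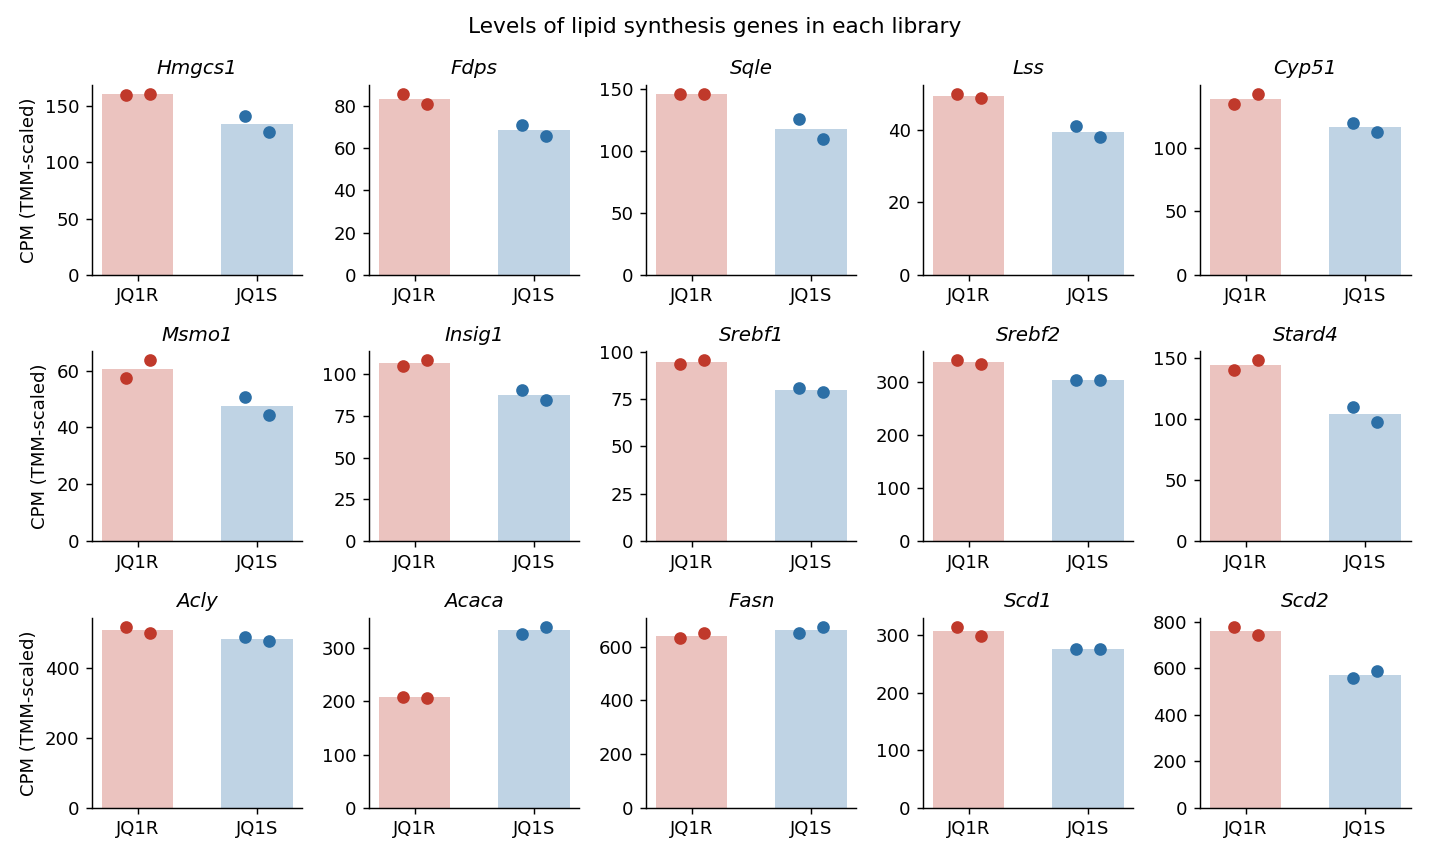
CPM after TMM scaling (vertical axes, from 0) of 15 lipid synthesis genes in JQ1R (red, left) and JQ1S (blue, right) libraries; each point is 1 library and each bar the mean of 2. In Sqle the JQ1R points coincide at 146 CPM above JQ1S points of 126 and 110 CPM, and in Acaca both JQ1R points lie far below the JQ1S points.

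Promoter sequences are shown for 4 of the 10 genes that rose, as examples that hold motifs searched for here. None is shown for a gene that did not pass. SREBPs are known to act at promoters of their targets together with the factors NF-Y and Sp1. Their part in these rises was not tested. RefSeq windows of GRCm38.p6 were found for 30 of the 38 genes, and the 250 bases before each start were searched on both strands for the sterol regulatory element core TCACNCCAC, the E-box CACGTG, the NF-Y box CCAAT and the Sp1 box GGGCGG. The last 180 bases before the start are printed 5′ to 3′ on the strand of the gene, with any of these motifs, in either orientation, in capitals. Matches of different motifs could overlap in the search, and in these 4 stretches they do not.
Hmgcs1 (chr13:119690171-119690350, plus strand): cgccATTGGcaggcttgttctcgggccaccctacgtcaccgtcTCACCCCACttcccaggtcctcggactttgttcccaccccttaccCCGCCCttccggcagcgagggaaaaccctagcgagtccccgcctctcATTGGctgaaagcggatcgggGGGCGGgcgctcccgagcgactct
Lss (chr10:76531425-76531604, plus strand): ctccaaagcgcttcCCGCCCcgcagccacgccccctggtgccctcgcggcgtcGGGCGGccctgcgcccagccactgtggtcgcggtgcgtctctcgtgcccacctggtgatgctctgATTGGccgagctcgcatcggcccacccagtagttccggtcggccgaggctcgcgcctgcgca
Msmo1 (chr8:64733579-64733758, minus strand): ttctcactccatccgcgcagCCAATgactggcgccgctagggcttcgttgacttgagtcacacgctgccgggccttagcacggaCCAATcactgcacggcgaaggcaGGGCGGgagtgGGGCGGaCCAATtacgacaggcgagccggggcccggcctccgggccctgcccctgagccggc
Insig1 (chr5:28071232-28071411, plus strand): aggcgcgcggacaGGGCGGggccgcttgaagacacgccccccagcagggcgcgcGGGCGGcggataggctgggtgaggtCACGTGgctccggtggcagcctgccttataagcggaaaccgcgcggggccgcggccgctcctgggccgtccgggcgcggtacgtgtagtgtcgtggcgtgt

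The exact element core was found in 1 of the 30 genes, Hmgcs1, 137 to 129 bases before its start and between 2 NF-Y boxes. Of the 27025 genes with windows 1.22% hold it. The NF-Y box was found in 24 of the 30 genes and in 37.5% of all genes with windows, the Sp1 box in 25 of the 30 and in 35.4%, and the E-box in 6 of the 30 and in 6.86%. The genes with windows include genes without a row in the count table. They were not matched to the 30 for expression, base composition or number of windows, and the differences in share were not tested. In Msmo1 3 NF-Y boxes and 2 Sp1 boxes lie in the printed stretch, and Insig1 carries the E-box. RefSeq and GENCODE place some starts differently: the printed Msmo1 stretch lies inside the gene as GENCODE annotates it, the ends of the Lss and Insig1 stretches nearest the start do too, and the Hmgcs1 stretch lies outside. The window of Acaca also lies inside its GENCODE gene and holds none of the 4 motifs. No match was found for Fdps, Sqle, Stard4 or Scd2, which rose. Each of these had no window, or a window without these motifs, so the printed examples do not stand for all genes that rose. Genes that did not pass held motifs too, such as Fasn with NF-Y boxes. Dhcr7 had NF-Y, Sp1 and E-box matches, but not all in the same window. The 6 genes with the E-box were Insig1, which rose, and Dhcr7, Elovl5, Hsd17b7, Sc5d and Scap, which did not pass. Whether the motifs go with the changes was not tested. A match describes letters in the window and says nothing of binding in these cells, and a window without a match says only that these letters are not in it.

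Among the regulators, Insig1 and Srebf1 rose and the others did not pass. Insig1, which encodes the protein that retains SCAP and is itself a classical SREBP target, stood at 105 and 108 CPM in JQ1R and at 90.7 and 84.3 CPM in JQ1S (log2 change 0.28 ± 0.07, 21.4% higher, adjusted p = 0.0231, edgeR). Srebf1 stood at 93.5 and 95.3 CPM in JQ1R and at 80.7 and 78.5 CPM in JQ1S (0.25 ± 0.06, adjusted p = 0.0433, edgeR). In both genes the lines did not overlap, and in Srebf1 the 2 libraries of each line were close together. Neither gene passed in DESeq2 (adjusted p = 0.133 for Insig1 and 0.313 for Srebf1) or with either JQ1R library left out.

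Srebf2 was the most abundant regulator, also per kilobase of exon. It stood at 340 and 334 CPM in JQ1R and at 302 and 303 CPM in JQ1S, an 11.2% difference that did not pass (log2 change 0.15, 95% interval 0.04 to 0.27, adjusted p = 0.149, edgeR). The SREBP escort gene Scap averaged 104 ± 1.85 CPM in JQ1R and 105 ± 1.43 CPM in JQ1S, and the log2 change had a 95% interval of -0.15 to 0.11. Insig2, the second INSIG gene, was at 10.2 and 9.34 CPM in JQ1R and 9.09 and 9.33 CPM in JQ1S and did not pass either (adjusted p = 0.827, edgeR).

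Stard4 had the largest called rise of the sterol genes. It encodes a soluble carrier that moves cholesterol between membranes and is a known SREBP target. Its level was 140 and 148 CPM in JQ1R and 110 and 97.8 CPM in JQ1S, so that the lowest JQ1R library lay well above the highest JQ1S library. The log2 change was 0.47 ± 0.07, or 1.39-fold (95% interval 1.26 to 1.53), with an adjusted p of 4.25e-04 in edgeR. The 10 tested genes nearest to it on its chromosome were not called, with log2 changes of -0.12 to 0.67.

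Npc1 and Npc2 encode the proteins that let cholesterol leave the lysosome. Npc1 was weakly expressed and tended the other way, at 11.9 and 11.2 CPM in JQ1R and at 14.5 and 14.7 CPM in JQ1S, but did not pass (-0.34 ± 0.12, adjusted p = 0.158, edgeR). Npc2 averaged 164 ± 6.86 CPM in JQ1R and 156 ± 1.39 CPM in JQ1S (log2 change 0.07, adjusted p = 0.622, edgeR).

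In fatty acid synthesis, the gene of the committed step fell, and the genes of the steps before and after it did not pass the test. Acaca encodes acetyl-CoA carboxylase 1, which makes malonyl-CoA, and lies on chromosome 11 at 84129672 to 84401651 (GRCm38). Its level was 209 and 207 CPM in JQ1R and 327 and 340 CPM in JQ1S. The lines were far apart relative to the spread within them, with a log2 change of -0.68 ± 0.06, or 37.7% lower (fold 0.62, 95% interval 0.57 to 0.68, adjusted p = 7.32e-07, edgeR). It was the only 1 of the 37 genes that fell.

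A processed pseudogene of Acaca, Gm5182, matches 64.3% of the longest Acaca transcript, with 99.2% identity over 6118 bases. It was not analysed here, and its part in the difference was not tested. The 5 tested genes on each side of Acaca were not called, with log2 changes between -0.12 and 0.38.

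Acly and Fasn flank Acaca in the pathway, and neither passed the test. Acly, which encodes ATP-citrate lyase, the source of cytosolic acetyl-CoA, stood at 518 and 501 CPM in JQ1R and at 491 and 479 CPM in JQ1S (log2 change 0.07, 95% interval -0.04 to 0.19). Fasn, the fatty acid synthase gene, stood at 631 and 651 CPM in JQ1R and at 652 and 673 CPM in JQ1S (-0.05, 95% interval -0.16 to 0.06). Both intervals exclude a change as large as that of Acaca. Within each library, the ratio of Acaca to Fasn in CPM was 0.331 and 0.317 in JQ1R and 0.502 and 0.505 in JQ1S. The ratio of Acaca to Acly was 0.403 and 0.412 in JQ1R and 0.667 and 0.71 in JQ1S, so both ratios separated the lines without overlap.

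Acss2, the acetyl-CoA synthetase that uses acetate, was scarcely expressed but had the largest log2 change of the 37 genes. It stood at 5.40 and 4.54 CPM in JQ1R, from 59 and 54 counts, and at 3.08 and 2.62 CPM in JQ1S, from 40 and 27 counts. The lines did not overlap, and the log2 change of 0.78 ± 0.22 did not pass (adjusted p = 0.0647, edgeR).

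Of the 7 genes that lengthen or desaturate fatty acids, Scd2 rose and 6 did not pass. Stearoyl-CoA desaturases put the first double bond into saturated acyl chains, and per kilobase of exon Scd2 had the highest level of the 37 genes in both lines. In CPM it was highest in the JQ1R libraries, and Fasn was above it in both JQ1S libraries. It lies on chromosome 19 at 44293674 to 44306864. Scd2 stood at 777 and 742 CPM in JQ1R and at 557 and 586 CPM in JQ1S, a log2 change of 0.41 ± 0.05, or 32.9% higher (adjusted p = 2.08e-04, edgeR). The gap between the lines was several times the gap within them, and none of the 10 nearest tested genes on the chromosome was called.

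Its paralogue Scd1 was at 314 and 298 CPM in JQ1R and at 276 and 276 CPM in JQ1S, which did not pass (0.15, 95% interval 0.03 to 0.27, adjusted p = 0.17, edgeR). The ratio of Scd2 to Scd1 within a library was 2.48 and 2.49 in JQ1R and 2.02 and 2.13 in JQ1S. Of the Scd2 transcript 11.4% matches Scd1 at 95% identity or more, so a share of the reads of either gene could be assigned to the other.

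The elongases Elovl1, Elovl5 and Elovl6, which add carbon pairs to acyl chains, had log2 changes of -0.01, 0.03 and -0.02, and the lines overlapped in all 3. Their 95% intervals lay between -0.17 and 0.16. Fads1, the delta-5 desaturase of polyunsaturated fatty acids, stood at 28.8 and 29.5 CPM in JQ1R and at 23.2 and 25.8 CPM in JQ1S (0.26 ± 0.09, adjusted p = 0.16, edgeR). Fads2, the delta-6 desaturase, was below 5 CPM in every library (0.26 ± 0.23).

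The JQ1S libraries differed from each other in sterol gene levels. For the 18 sterol synthesis genes the median log2 difference of replicate 1 over replicate 2 was -0.00 in JQ1R (-0.0015) and 0.13 in JQ1S, and 12 of the 18 had their lowest level in JQ1S replicate 2. For the 11 fatty acid genes the same median difference was 0.01 in JQ1R and -0.05 in JQ1S. Summed levels of the sterol synthesis genes were 1121 and 1134 CPM in JQ1R and 1018 and 917 CPM in JQ1S, and those of the fatty acid genes 2795 and 2749 CPM in JQ1R and 2651 and 2687 CPM in JQ1S. Both JQ1R libraries lay above both JQ1S libraries in 13 of the 18 sterol synthesis genes and in 5 of the 11 fatty acid genes, against 24.1% of all tested genes, and below them in 1 sterol synthesis gene and 2 fatty acid genes, against 23.2%. The lines overlapped in 9 of all 37 genes, so that 75.7% did not overlap, against 47.3% of all tested genes.

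**Figure D3:**
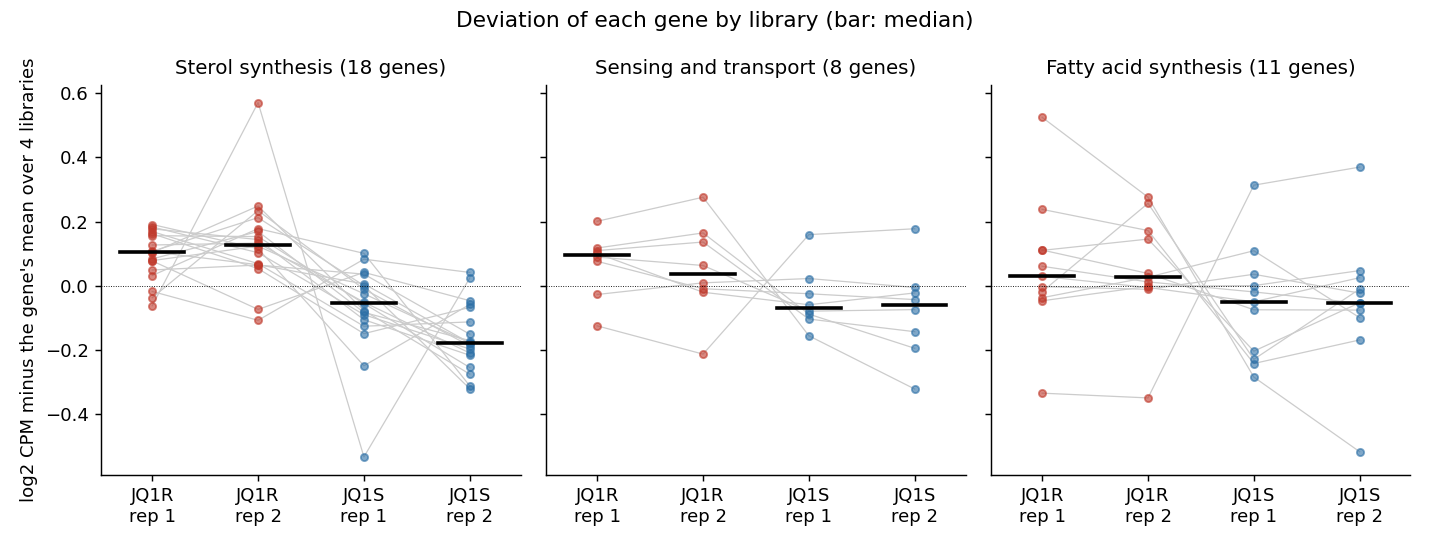
Log2 CPM of each gene minus its mean over the 4 libraries (vertical axis), by library, for sterol synthesis, sensing and transport, and fatty acid synthesis genes; grey lines join 1 gene, black bars are medians. The sterol medians are 0.10 and 0.13 in JQ1R and -0.05 and -0.18 in JQ1S, and the fatty acid medians are 0.03 and 0.03 in JQ1R and -0.05 and -0.05 in JQ1S.

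The calls of Acaca, Scd2 and Stard4 were made under all 12 alternative settings tried, and those of the other 8 genes were not. DESeq2 called 3 of the 37 genes, beside 1.74% of all genes, and gave Hmgcs1, Fdps, Sqle, Lss, Cyp51, Msmo1, Insig1 and Srebf1 adjusted p-values of 0.0551 to 0.314 at nearly the same log2 changes. Without JQ1R replicate 1 1 sterol synthesis enzyme was called, Msmo1, and without JQ1R replicate 2 none was, with adjusted p-values of 0.107 to 0.512 for the 6. In these fits the spread rests on the JQ1S pair alone, and the lone JQ1R library is assumed to vary as that pair does. With either JQ1S library left out, the fit rests on the spread of the JQ1R pair alone. More sterol synthesis genes were then called than with all 4 libraries, and so were more genes over the whole table. The sterol median log2 change was 0.29 without JQ1S replicate 1 and 0.19 without JQ1S replicate 2. Srebf2 and Scd1 passed only in these last fits, each at a log2 change of 0.15. The median log2 change of the 18 genes stayed between 0.19 and 0.29 in all 12 settings.

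**Figure D4:**
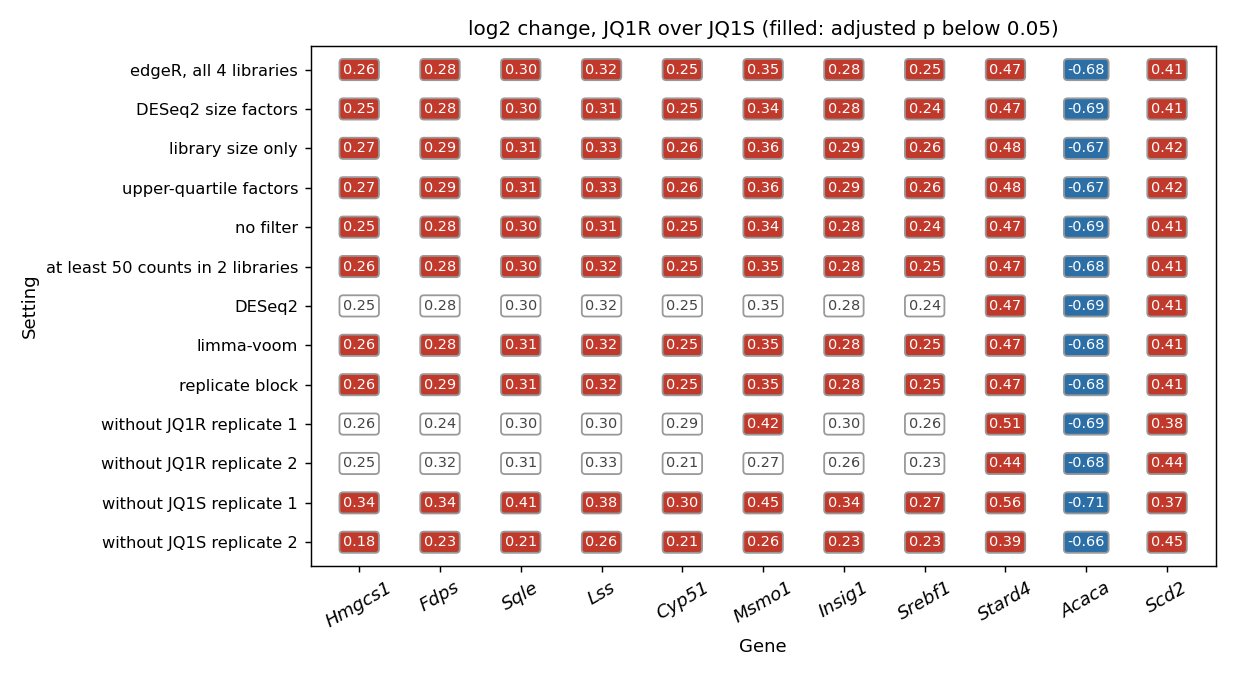
Log2 change, JQ1R over JQ1S, of the 11 called genes (columns) in the edgeR fit of all 4 libraries and in 12 alternative settings (rows); filled cells passed an adjusted p below 0.05, red for higher and blue for lower. Stard4, Acaca and Scd2 are filled in every row, and 8 genes are unfilled in DESeq2.

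Of 5 neighbouring groups of genes, 3 held no called gene and 2 held 1 each. Over all 11945 tested genes 3.73% were called in edgeR, and 2013 had an unadjusted p below 0.05. At that share groups of this size would hold few called genes or none, so these counts do not set the groups apart. Of 18 tested genes that process or degrade SREBPs and their regulators, such as the site proteases and the COPII coat, 0 were called in edgeR, with 1 at an unadjusted p below 0.05, and their median log2 change was 0.01. None of 12 genes of the isoprenoid branch was called (median -0.03, 0 at an unadjusted p below 0.05), and none of 10 genes of sterol efflux, storage and LXR response (median -0.00, or -0.003, with 1 at an unadjusted p below 0.05). DESeq2 and limma-voom called 0 genes in each of these 3 groups. Of 7 other genes of sterol synthesis and uptake 1 was called higher by edgeR and by limma-voom, 3 had an unadjusted p below 0.05, and the median log2 change was 0.07. Of 20 genes of acyl-CoA, phospholipid and triglyceride synthesis 2 had an unadjusted p below 0.05 and 1 was called, the acyl-CoA synthetase gene Acsl1, which fell to 33.8 and 30.9 CPM in JQ1R, against 39.7 and 40.8 CPM in JQ1S (-0.32 ± 0.08, adjusted p = 0.0496, edgeR). Neither Acsl1 nor any of those 7 genes was called by DESeq2, and limma-voom did not call Acsl1.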

How the data were processed

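RNA sequencing libraries of 2 lines were analysed, with 2 libraries each. The authors deposited unnormalized read counts for each Ensembl gene identifier. Tools listed in the submitters' processing notes include TopHat and Bowtie2, HTSeq, limma, FastQC and cutadapt 1.7, with GRCm38 and mm10 as builds. No source used here gives the strand setting or the annotation release, so reads of overlapping genes on opposite strands cannot be told apart. Every row had at least 4 counts over the libraries.

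Symbols, positions and exonic lengths came from GENCODE M21 (GRCm38), which matched 16407 of 16591 identifiers, and promoters from RefSeq (GRCm38.p6). Counts were filtered with filterByExpr (minimum count 10, minimum total 15) and fitted with glmQLFit and glmQLFTest of edgeR 4.0.16 (R 4.3.3), TMM factors and a model of the group alone. SEs were derived from the F statistic. The scripts were tested on simulated data. Alternatives used DESeq2 1.42.0, limma-voom (limma 3.58.1), other scalings and filters, a replicate block and leaving out each library. Near copies were found with BLAST 2.17.0 (95% identity over at least 100 bases).

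The genes and lists were chosen with earlier results of these data known. Values in every library are given for each gene called and for leading enzymes of each arm. One gene that this rule names is not reported here.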

Additional observations from a re-analysis of the deposited data

How the results depend on the processing

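Directions of all 11 called genes held in the 12 alternatives. Called genes over the table numbered 445 in edgeR, against 208 in DESeq2 and 270 to 1381 with 1 library left out. Of the 37 genes described, 11 were called in edgeR, against 3 in DESeq2 and 3 to 17 with 1 library left out. Sterol synthesis genes called higher numbered 6, against 0 in DESeq2 and 0 to 9 with 1 library left out, and sensing and transport genes 3, against 1 in DESeq2 and 1 to 4. Fatty acid genes called higher numbered 1, or 2 with the replicate block and 1 to 3 with 1 library left out. The sensing and transport median was 0.13 with library size only, and 0.0815 to 0.155 with 1 library left out. The fatty acid median was 0.0479 to 0.0975 and the sterol minus fatty acid difference in medians 0.13 to 0.21 with 1 library left out. Signs turned only for genes near 0 that were not called: Dhcr7 (-0.00118 with DESeq2 size factors, -0.00131 with no filter, -0.00155 in limma-voom and -0.0748 to 0.0772 with 1 library left out, negative without JQ1R replicate 1 and without JQ1S replicate 2), and, with 1 library left out, Elovl1 (-0.0442 to 0.016), Elovl5 (-0.0137 to 0.05995) and Elovl6 (-0.115 to 0.0951). The signs of Elovl1 and Elovl5 turned without JQ1S replicate 1, and that of Elovl6 without JQ1R replicate 1 and without JQ1S replicate 1. The cause was not tested.

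The replicate numbers are not said to pair libraries, and the replicate 1 minus 2 differences of the lines correlated at -0.02 over 11945 genes. With the replicate block 595 genes in all and 13 of the 37 were called, Fdft1 and Acss2 being added (adjusted p = 0.0325 and 0.0151, edgeR).

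Weakly expressed members such as Acss2, Tm7sf2 and Fads2 rest on under 100 counts a library, so only large changes were detectable in them.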
